A study of Mus musculus with 6 samples.

Results

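This report describes 10 genes of GABAergic interneurons in whole brain from Pofut1 knockout and control mice. The genes were chosen by name, for GABA synthesis and for interneuron subtypes, and all array probe sets whose annotation gives a single one of these symbols were taken. They were 20 probe sets of 45037 tested and 10 genes of 18193 with a named probe set. Each of 6 arrays measured 1 sample of total RNA from brain of mice aged 2 months on the C57/Bl6 strain. The NestinCre control (2 arrays) carried the Nestin-Cre transgene and wild type Pofut1, Flox control (2 arrays) carried 2 floxed copies of Pofut1 without Cre, and knockout (2 arrays) carried the transgene together with 2 floxed copies. The Nestin regulatory sequence drives Cre in neural progenitors and so in the neurons and glia descended from them, while vessels and microglia have other origins. The series addresses what loss of Pofut1, a fucosyltransferase that acts on Notch receptors, does to adult neural progenitors.

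GABAergic interneurons are the locally projecting inhibitory neurons of cortex, hippocampus, striatum and olfactory bulb. They make GABA with glutamate decarboxylases, load it into vesicles with a dedicated transporter, and are sorted into subtypes by the calcium-binding protein or neuropeptide they contain. Adult neural progenitors of the subventricular zone continue to supply GABAergic neurons to the olfactory bulb. Several of the genes are not restricted to interneurons: Purkinje cells of the cerebellum and striatal projection neurons are also GABAergic, and hypothalamic neurons make the same neuropeptides. In RNA from whole brain, fewer cells of a type and less RNA per cell cannot be told apart.

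Of the 20 probe sets 17 were brighter than the median probe set, at least 1 for each gene, and their levels lay close together across the 3 genotypes. Over the 6 arrays, the brightest probe set of each gene varied between 1.09-fold (Pvalb) and 1.37-fold (Lhx6) from the lowest array to the highest. None of the 20 probe sets passed an adjusted p of 0.05 in limma, a linear model fitted to all probe sets, in knockout against both controls, where 0.0155% of all probe sets did. None had an unadjusted p under 0.05 either, against 11.1% of all probe sets. The median difference of the 20 was -0.02 on the log2 scale, with 8 above 0 and 12 below, beside -0.0052 for all probe sets. For the brightest probe set of each gene the median was -0.09, with 2 above 0 and 8 below, beside -0.02 for the brightest probe sets of all genes.

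The deposited values had array medians of 7.32 to 7.36 on the log2 scale and correlations of 0.9849 to 0.9952 between arrays. The submitters' normalization, RMA, gives arrays a common distribution, so the medians do not show how similar the samples were in overall signal. Pofut1 itself read 918 and 874 in NestinCre control, 992 and 899 in Flox control and 610 and 696 in knockout, in the intensity units of the deposited values, lowest on the knockout arrays. Its log2 difference was -0.50 (SE 0.08, limma adjusted p = 0.211), and whether the probe set covers deleted exons is not known here. Xist and Eif2s3y levels read as male in knockout replicate 1 and NestinCre control replicate 2, and as female in the other 4 samples. Pan-neuronal markers were well detected, with all 7 measured genes brighter than the median probe set. Pituitary transcripts stood apart in Flox control, where the 7 measured markers summed to 788 and 1884 against 469 to 553 on the other arrays.

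RefSeq promoters (build GRCm38.p6, 250 bases before to 50 bases after the gene start) were found for 9 of the 10 genes, 12 promoters in all. They were searched on both strands for the cyclic AMP response element TGACGTCA, the element through which neuronal activity is known to drive neuropeptide genes, and for GTGGGAA, the core letters bound by RBPJ, the DNA-binding partner of Notch. The motifs do not overlap each other. One promoter held the first motif, that of Sst, beginning 48 bases before the start, and one held the second, that of Slc32a1, where the reverse strand match begins 4 bases before the start. Of 32851 promoters of the same length, 1.79% held TGACGTCA and 6.38% held GTGGGAA. Shown are both promoters with a match, in capitals, and those of Gad1 and Reln, the genes whose brightest probe sets separated knockout from all controls and whose promoters held neither motif. They lie at chr16:23890795-23891094 on the minus strand (Sst), chr2:158610508-158610807 on the plus strand (Slc32a1), chr2:70561879-70562178 on the plus strand (Gad1) and chr5:22344656-22344955 on the minus strand (Reln).
Sst: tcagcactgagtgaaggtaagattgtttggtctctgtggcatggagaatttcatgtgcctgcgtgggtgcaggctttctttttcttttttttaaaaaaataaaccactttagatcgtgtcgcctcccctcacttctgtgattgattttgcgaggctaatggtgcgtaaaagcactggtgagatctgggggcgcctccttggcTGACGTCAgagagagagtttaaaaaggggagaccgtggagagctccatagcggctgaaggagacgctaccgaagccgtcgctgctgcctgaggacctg
Slc32a1: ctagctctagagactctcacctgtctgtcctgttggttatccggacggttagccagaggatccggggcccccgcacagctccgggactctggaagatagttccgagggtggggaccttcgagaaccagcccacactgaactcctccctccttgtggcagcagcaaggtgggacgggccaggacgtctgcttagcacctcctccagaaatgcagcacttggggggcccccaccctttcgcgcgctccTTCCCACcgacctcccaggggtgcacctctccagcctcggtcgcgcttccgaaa
Gad1: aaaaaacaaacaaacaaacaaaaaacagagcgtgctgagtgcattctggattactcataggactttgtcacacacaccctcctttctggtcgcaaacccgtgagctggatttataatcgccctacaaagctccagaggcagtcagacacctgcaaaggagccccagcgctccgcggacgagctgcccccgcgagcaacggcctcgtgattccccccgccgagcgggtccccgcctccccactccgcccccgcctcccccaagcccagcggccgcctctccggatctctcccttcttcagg
Reln: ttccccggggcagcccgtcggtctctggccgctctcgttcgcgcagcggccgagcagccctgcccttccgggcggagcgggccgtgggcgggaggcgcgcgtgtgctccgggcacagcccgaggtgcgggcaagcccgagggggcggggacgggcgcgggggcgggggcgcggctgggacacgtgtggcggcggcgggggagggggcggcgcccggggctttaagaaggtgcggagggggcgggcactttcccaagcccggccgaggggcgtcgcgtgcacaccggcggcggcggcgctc
A match is a description of these letters and was not tested as a binding site.

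The enzymes and the transporter of GABA did not share a direction. Gad1 encodes the larger glutamate decarboxylase, which supplies most GABA of the cell body. Its brightest probe set read 3965 and 3790 in NestinCre control, 4495 and 3930 in Flox control and 3603 and 3729 in knockout. Both knockout arrays were below all 4 controls, by a small margin from NestinCre control replicate 2, and Flox control replicate 1 stood highest. Knockout was at 90.8% of the controls (95% interval 79.8% to 103%), a log2 difference of -0.14 (SE 0.07, limma adjusted p = 0.566). The second Gad1 probe set went the other way, with 960 and 1034, then 1060 and 1067, then 1047 and 1348. Its difference of 0.21 (SE 0.11, limma adjusted p = 0.589) rested on knockout replicate 2, since knockout replicate 1 lay among the controls. Without knockout replicate 1 it was 0.39 (SE 0.07, limma adjusted p = 0.467).

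Gad2 encodes the smaller decarboxylase, found mainly at nerve terminals. Its brightest probe set read 2832 and 3092 in NestinCre control, 3127 and 2702 in Flox control and 3137 and 3086 in knockout. The groups overlapped, and knockout stood at 106% of the controls (95% interval 91.9% to 123%; log2 difference 0.09, SE 0.08, limma adjusted p = 0.786). The second Gad2 probe set ranged more widely, 1.52-fold over the arrays. It read 572 and 778, then 600 and 854, then 667 and 870, so that replicate 2 exceeded replicate 1 within each genotype. Genotype means were closer to each other than the replicates were. The same replicate order, with smaller gaps, held for the dimmer Gad1 probe set and for a dimmer probe set of Slc32a1. The difference between 3' and 5' control probe sets for Gapdh, a measure of RNA integrity, was 0.65 and 0.62, then 0.74 and 0.65, then 0.65 and 0.71 on the log2 scale, and its part in this pattern was not tested.

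**Figure D1:**
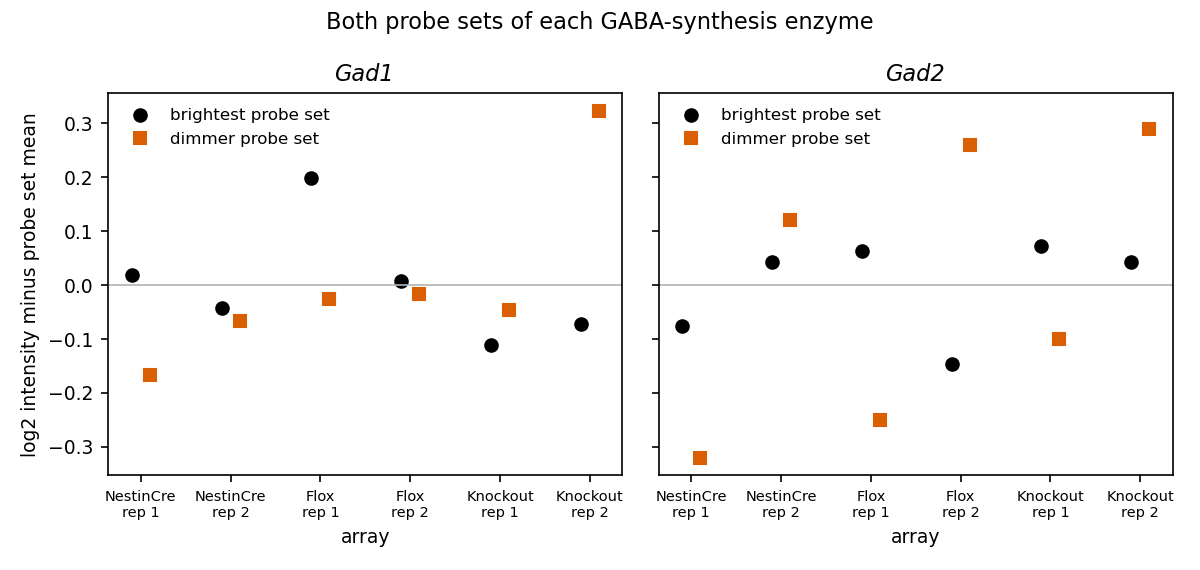
Log2 intensity of both probe sets of Gad1 and Gad2 on each of the 6 arrays, each minus its own mean; circles are the brightest probe set and squares the dimmer one. The dimmer Gad1 probe set is highest in knockout replicate 2. The dimmer probe sets of both genes are higher in replicate 2 than in replicate 1 of each genotype, with wider gaps for Gad2. The brightest probe sets do not show this pattern.

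Slc32a1 encodes the vesicular GABA transporter, which fills synaptic vesicles. Its brightest probe set read 1094 and 1207 in NestinCre control, 1313 and 1263 in Flox control and 1070 and 1224 in knockout. Flox control was highest on both arrays, and knockout and NestinCre control overlapped. Knockout differed by -0.09 (SE 0.08, limma adjusted p = 0.779) from both controls, by -0.01 (SE 0.09) from NestinCre control and by -0.17 (SE 0.09) from Flox control. The 3 dimmer probe sets differed by between -0.13 and 0.00 from both controls. One of them, at 173 and 176, then 172 and 173, then 149 and 170, had both knockout arrays below all 4 controls (-0.13, SE 0.07, limma adjusted p = 0.596). One of the other two carries the suffix that marks probes shared between transcripts, so its signal may not be that of Slc32a1 alone.

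The 3 neuropeptides had differences of -0.17 to -0.10 in knockout against both controls, none past the test. Somatostatin (Sst) marks dendrite-targeting interneurons and read 5448 and 4988 in NestinCre control, 5428 and 4874 in Flox control and 4561 and 5071 in knockout. Knockout replicate 1 was the lowest array and knockout replicate 2 lay within the controls. Knockout was at 92.9% of the controls (95% interval 80.2% to 108%; log2 difference -0.11, SE 0.08, limma adjusted p = 0.725).

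Neuropeptide Y (Npy) is made by several interneuron classes and by hypothalamic neurons. It read 3701 and 2917 in NestinCre control, 3311 and 3190 in Flox control and 2745 and 3060 in knockout. The NestinCre control arrays were the furthest apart, and the groups overlapped. Its difference of -0.17 (SE 0.11, 95% interval -0.47 to 0.12, limma adjusted p = 0.668) was the lowest of the 20 probe sets. Without NestinCre control replicate 2 it was -0.26 (SE 0.07, limma adjusted p = 0.43).

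Vasoactive intestinal peptide (Vip) marks interneurons that inhibit other interneurons and is also made in the hypothalamic clock. It read 1363 and 1407 in NestinCre control, 1785 and 1488 in Flox control and 1341 and 1471 in knockout. Flox control was highest on both arrays, whereas NestinCre control and knockout overlapped. Knockout was 0.02 (SE 0.11) above NestinCre control and -0.21 (SE 0.11) from Flox control, while NestinCre control differed from Flox control by -0.24 (SE 0.11, limma adjusted p = 0.535), the smallest p among the 20 probe sets between the controls. Without Flox control replicate 2, which was the lower of that pair, NestinCre control differed from Flox control by -0.37 (SE 0.09, limma adjusted p = 0.453) and knockout differed from it by -0.35 (SE 0.09, limma adjusted p = 0.265).

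The calcium-binding proteins lay closest to the control level. Parvalbumin (Pvalb), the buffer of fast-spiking interneurons and of Purkinje cells, read 5152 and 5141 in NestinCre control, 5434 and 5609 in Flox control and 5137 and 5446 in knockout. Knockout was at 99.2% of the controls (95% interval 90.7% to 109%; log2 difference -0.01, SE 0.05, limma adjusted p = 0.974). This was the narrowest interval among the brightest probe sets of the 10 genes.

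Calbindin (Calb1), found in subsets of interneurons, in Purkinje cells and in striatal projection neurons, read 4619 and 4523, then 5005 and 4483, then 4549 and 4750 in the same order of groups. Knockout was at 99.9% of the controls (95% interval 89.0% to 112%; SE 0.06, limma adjusted p = 0.997). Of its 3 dimmer probe sets, those reading 413 to 494 and 158 to 216 differed by 0.01 (SE 0.08) and 0.02 (SE 0.13). The other, at 1616 and 1445, then 1700 and 1485, then 1310 and 1542, differed by -0.13 (SE 0.10, limma adjusted p = 0.732).

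**Figure D2:**
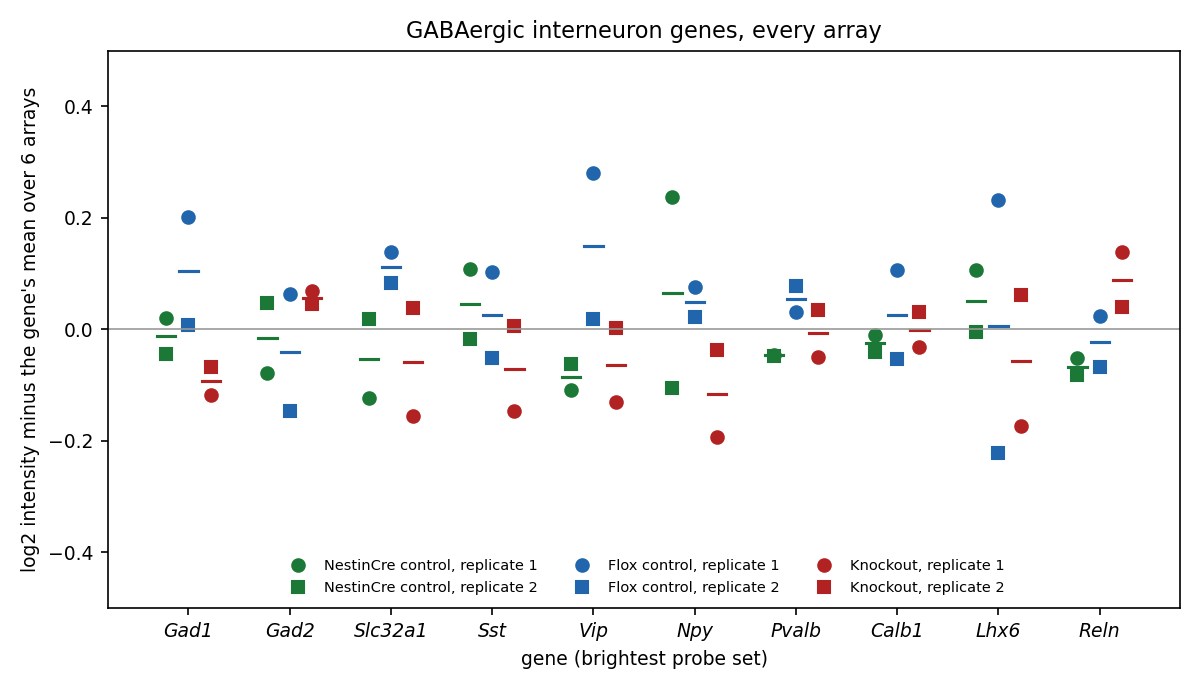
Log2 intensity of the brightest probe set of each of the 10 genes on every array, minus the gene's own mean over the 6 arrays; short bars are the means of 2 arrays. Knockout arrays lie below all controls for Gad1 and above all controls for Reln, knockout overlaps the controls for the other genes, and Pvalb varies least.

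Lhx6 and Reln concern how interneurons form and how they act on their surroundings. Lhx6, a homeodomain factor needed for interneurons from the medial ganglionic eminence, was the dimmest of the genes. Its brightest probe set read 208 and 193 in NestinCre control, 227 and 166 in Flox control and 171 and 202 in knockout. The replicates of Flox control spanned both other groups, and the difference of -0.08 (SE 0.15, limma adjusted p = 0.912) had an interval of -0.47 to 0.30. The dimmer probe set, at 55.1 to 63.2, was below the median brightness of all probe sets.

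Reelin (Reln), a secreted glycoprotein of cortical interneurons and cerebellar granule cells, was the gene with the smallest p in the comparison with both controls. It read 2070 and 2028 in NestinCre control, 2182 and 2047 in Flox control and 2364 and 2206 in knockout. Both knockout arrays were above all 4 controls, knockout replicate 2 by little. Knockout was at 110% of the controls (95% interval 99.0% to 122%; log2 difference 0.13, SE 0.06, limma adjusted p = 0.493). The second probe set, dim at 55.8 and 67.2, then 56.7 and 57.2, then 67.9 and 64.9, differed by 0.17 (SE 0.09, limma adjusted p = 0.564), with NestinCre control replicate 2 among the knockout values. Without that array its difference was 0.24 (SE 0.05, limma adjusted p = 0.375).

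In 3 of the 20 probe sets both knockout arrays lay beyond all 4 controls, 1 above (Reln) and 2 below (Gad1 and a dim probe set of Slc32a1). Over all probe sets 18.0% did so, 8.77% above and 9.19% below, so the share among the 20 was near the background. The intervals give what these arrays could show. All 20 intervals covered 0, and for the brightest probe sets of the 10 genes they reached from 72.1% (Lhx6) to 123% (Lhx6, Gad2) of the control level. The upper bound was widest for the dimmer Gad2 probe set, at 0.70 on the log2 scale.

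**Figure D3:**
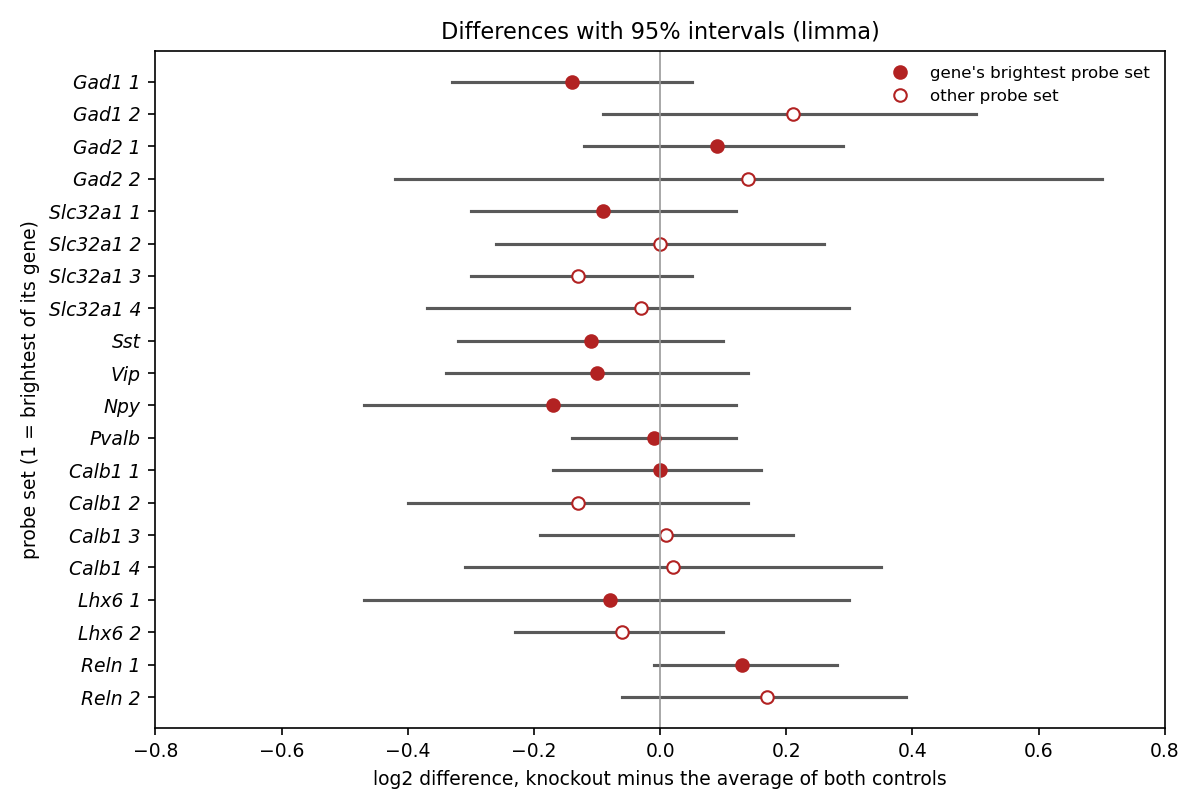
Log2 difference between knockout and the average of both controls for each of the 20 probe sets (filled, brightest of its gene; open, other), with the 95% interval of limma as a line. Every interval crosses 0, and the differences run from -0.17 (Npy) to 0.21 (the dimmer Gad1 probe set).

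Against each control separately the picture was similar, and these comparisons share the knockout arrays. Against NestinCre control, which lacks the floxed copies, the 20 probe sets had a median difference of 0.02, with 11 above 0 and 9 below. None passed the adjusted threshold, where 0.0% of all probe sets did, and none had an unadjusted p under 0.05, against 5.81% of all. The smallest p was that of Reln, at a log2 difference of 0.16 (SE 0.07, limma adjusted p = 0.898). Against Flox control, which lacks Cre, the median was -0.07, with 6 above 0 and 14 below. None passed (0.00444% of all probe sets did) and none had an unadjusted p under 0.05 (15.9% of all). Here Gad1 came first, at -0.20 (SE 0.08, limma adjusted p = 0.344).

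Over the 20 probe sets, the median absolute difference was 0.09 between the controls and 0.09 between knockout and both controls. It was 0.08 between knockout and NestinCre control and 0.11 between knockout and Flox control. For the brightest probe sets of the 10 genes these values were 0.05, 0.09, 0.08 and 0.10. The comparison with both controls averages 4 control arrays, so it is not a like measure to those between pairs of groups. NestinCre control minus Flox control had a median of -0.07 over the 20 probe sets, with 7 above 0 and 13 below. The adjusted threshold was passed by none (0.0% of all probe sets), and no probe set had an unadjusted p under 0.05, against 10.4% of all. Vip (-0.24), Slc32a1 (-0.16) and Gad1 (-0.12) had the lowest values of the brightest probe sets. For these genes knockout minus Flox control was -0.21, -0.17 and -0.20. Both differences subtract the same Flox control arrays, so genes picked by the first tend to be low in the second as well.

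The low counts at an unadjusted p under 0.05 depended on single arrays, and a gene named below can stand for different probe sets. Against both controls, Gad1 was its brightest probe set without Flox control replicate 2 (-0.19). Without knockout replicate 1 it was the dimmer Gad1 probe set, in the other direction (0.39). Slc32a1 there was a dimmer probe set (-0.22), and Reln was its dim probe set in every case. For knockout against both controls the count of 0 became 2 of 20 without NestinCre control replicate 2 (Npy and Reln; 10.4% of all probe sets). It became 1 without Flox control replicate 2 (Gad1; 12.1% of all), knockout replicate 2 (Slc32a1; 13.5%) or knockout replicate 1 (Gad1; 8.14%). Against NestinCre control it became 2 without NestinCre control replicate 2 (6.69% of all) and 1 without knockout replicate 1 (7.83%) or replicate 2 (6.55%). Against Flox control it was 3 without knockout replicate 2, all Slc32a1 (18.8% of all), 2 without Flox control replicate 2 (15.5%), and 1 without any of the other 4 arrays (10.2% to 14% of all). Between the controls it was 2 without Flox control replicate 2 (10.3% of all) and 1 without Flox control replicate 1 (8.29%) or NestinCre control replicate 1 (7.55%). These counts among 20 were near or below those shares, apart from that of 2 against NestinCre control.

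Single arrays stood apart across the genes. Flox control replicate 1 was above the mean of the 6 arrays for all 10 genes and was the highest array for 5. Knockout replicate 1 was the lowest array for 6 genes, whereas knockout replicate 2 was above the mean for 8. The samples that read as male, knockout replicate 1 and NestinCre control replicate 2, were each above the mean for 2 genes. Those that read as female were above it for 4 to 10. The same counts were not made over all genes, so they are not shown to be particular to these 10. Among the brightest probe sets of all 18193 genes, 11683 were lower in NestinCre control than in Flox control and 6510 were higher. Both Flox control samples read as female, so sex and genotype are partly confounded in comparisons with that group. The 3' to 5' difference for Actb was 1.41 in Flox control replicate 1 and 1.04 to 1.19 on the other arrays. The part of RNA integrity and of sex in these array levels was not tested.

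Lhx6 had the largest range over the arrays. The genes whose brightest probe sets followed it most closely, among 11474 brighter than the median, were Lypla2, Plxnb2 and Ccdc166, with root mean square distances of 0.036, 0.038 and 0.038 on the log2 scale over the 6 arrays. Like Lhx6, all 3 were highest in Flox control replicate 1, a likeness that choosing them by distance over the same arrays builds in.

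Genes that handle or sense GABA, and further interneuron genes, were taken as 6 lists of 94 genes, of which 83 had a named probe set. None of the 83 passed the adjusted threshold in knockout against both controls, where 0.0275% of the brightest probe sets of all genes did. At an unadjusted p under 0.05, 10 of the 83 were lower and 1 higher, beside 6.45% and 4.16% of all genes. Their median was -0.01. Against NestinCre control 4 were lower and 2 higher (2.89% and 3.23% of all genes), against Flox control 12 lower and 0 higher (10% and 4.75%), and between the controls 12 lower and 0 higher in NestinCre control (7.07% and 2.08%). None of the 83 passed the adjusted threshold in limma in these comparisons either, where 0.0%, 0.011% and 0.0% of all genes did. The lower count against both controls went from 10 to 5 without Flox control replicate 1 and to 4 without knockout replicate 1, where the lower share of all genes went from 6.45% to 5.41% and 3.75%. It was 4 with an intensity trend and robust fitting (5.28% of all genes).

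GABA uptake and breakdown comprised 8 measured genes, with 3 above 0 and 5 below. Slc6a11, the GABA transporter of astrocytes, read 1753 and 1770 in NestinCre control, 1923 and 1790 in Flox control and 1453 and 1540 in knockout. Both knockout arrays were below all controls (log2 difference -0.27, SE 0.06, limma adjusted p = 0.248). Slc6a12, a betaine and GABA transporter, differed by -0.13 (SE 0.07) and Glul, glutamine synthetase of astrocytes, by -0.06 (SE 0.05). The 6 measured astrocyte markers did not share a direction, with 2 above 0 and 4 below (median -0.06). Gfap, an intermediate filament, read 2238, 2047, 2355 and 2280 in controls and 3814 and 4299 in knockout (0.86, SE 0.07, limma adjusted p = 0.089), and the water channel Aqp4 differed by 0.25 (SE 0.06). The glutamate transporters Slc1a2 and Slc1a3 differed by -0.23 (SE 0.05) and -0.19 (SE 0.06), with both knockout arrays below all controls, as for Slc6a11. Gja1 and Aldh1l1 differed by -0.03 and -0.09, and the sum of the 6 was 27689 and 27490 in knockout against 26401 to 26949 in controls. Their part in the Slc6a11 difference was not tested.

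Of 17 measured GABA receptor and scaffold genes 9 were above 0 and 8 below, with a median of 0.01. Gabrg1, a GABA-A receptor subunit with restricted distribution, read 1018 and 1019 in NestinCre control, 1120 and 1177 in Flox control and 823 and 873 in knockout, without overlap (-0.35, SE 0.05, limma adjusted p = 0.184). Gabrb2, the beta subunit of many synaptic receptors, and Gabrr1, a retinal-type subunit that was dim here, differed by -0.07 (SE 0.06) and -0.11 (SE 0.07).

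The 25 other subtype genes had 8 above 0 and 17 below (median -0.05). At an unadjusted p under 0.05, 4 were lower, beside 6.45% of all genes. Between the controls 4 of the list were also lower in NestinCre control, beside 7.07% of all genes. Cxcl14, a chemokine of caudal interneurons that astrocytes also make, read 1226 and 1283 in NestinCre control, 1577 and 1523 in Flox control and 1002 and 1035 in knockout. The 3 groups did not overlap, and knockout differed by -0.45 (SE 0.05, limma adjusted p = 0.133) from both controls and by -0.61 from Flox control. Against Flox control it passed with an intensity trend in eBayes (limma adjusted p = 0.0454), where 162 of 45037 probe sets did. With robust fitting added it also passed (limma adjusted p = 0.0374), where 325 did. NestinCre control differed from Flox control by -0.31 (SE 0.06). In the main fit, which has no trend, Cxcl14 did not pass against Flox control (limma adjusted p = 0.108). With sex as a covariate, also without a trend, none of the 83 genes passed against Flox control (smallest limma adjusted p = 0.269). None of all 45037 probe sets passed there either. Cort, the somatostatin-like peptide cortistatin, read 368 and 234, then 224 and 189, then 152 and 155, lowest in knockout but with NestinCre control replicate 1 apart from the rest (-0.68, SE 0.20, limma adjusted p = 0.347). Kcns3, a potassium channel subunit of parvalbumin cells, differed by -0.23 (SE 0.07, limma adjusted p = 0.339). The fourth, Nxph1, a secreted neurexin ligand named here after its value was seen, differed by -0.19 (SE 0.07, limma adjusted p = 0.42).

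Among 15 interneuron transcription factors the median was -0.0056. Dlx5, which acts in forebrain GABAergic precursors, was lower at an unadjusted p under 0.05 (-0.18, SE 0.07, limma adjusted p = 0.435). So was Nr2f1, a nuclear receptor of caudal interneurons and of cortex (-0.18, SE 0.07, limma adjusted p = 0.436). Against both controls these were 2 of the 15, beside 6.45% of all genes, and 0 of the 15 were higher, beside 4.16%. Against NestinCre control 0 of the 15 had such a p in either direction. Dlx1, another factor of GABAergic precursors, read 466 and 517 in NestinCre control, 672 and 692 in Flox control and 532 and 527 in knockout. Both groups with the transgene were below Flox control, by -0.47 for NestinCre control and -0.36 for knockout, and knockout was 0.11 above NestinCre control.

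The 12 measured receptors of the peptides had a median of 0.0048 in knockout against NestinCre control, with 6 above 0 and 6 below, and of -0.08 against Flox control, with 4 above and 8 below. Sstr2, a somatostatin receptor, read 537 and 563 in NestinCre control, 714 and 657 in Flox control and 521 and 528 in knockout, which was -0.07 from NestinCre control and -0.38 from Flox control. Npy5r, a neuropeptide Y receptor, differed by -0.04 and -0.47 in the same comparisons, and the VIP receptor Vipr1 by -0.05 and -0.21. Of the 12 measured receptors 4 were above 0 and 8 below against both controls (median -0.02). None of the 12 passed the adjusted threshold in any of the 4 comparisons.

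Of the 6 measured genes that receive reelin, 4 were above 0 (median 0.05). Fyn, a kinase downstream of reelin, read 2070 and 2311 in NestinCre control, 2202 and 2334 in Flox control and 2593 and 2506 in knockout (0.19, SE 0.07, limma adjusted p = 0.402). It was above all controls, as were Reln and 8.77% of all probe sets. With sex as a covariate none of the 83 genes, Fyn included, was higher at an unadjusted p under 0.05. The main fit had 1 such gene. With that covariate 10.3% of all probe sets had such a p in either direction. The part of sex in the Fyn difference was not tested. Lrp8, a reelin receptor, differed by 0.14 (SE 0.13) and the adaptor Crk by -0.08 (SE 0.09).

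**Figure D4:**
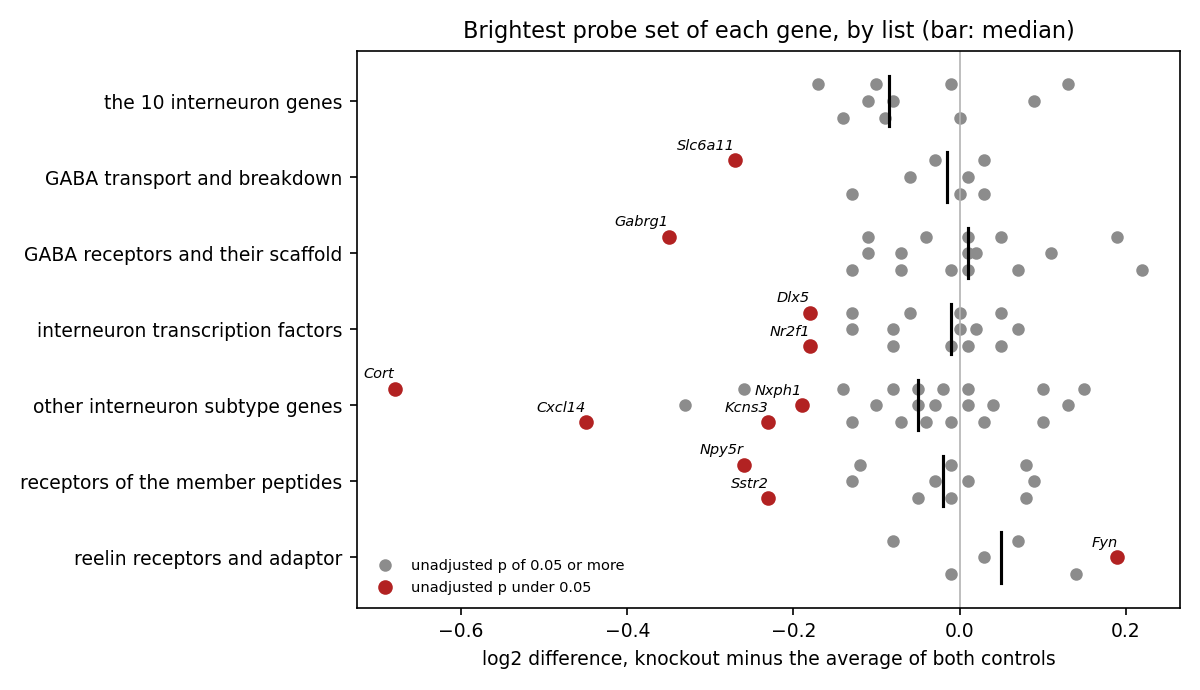
Log2 difference between knockout and the average of both controls for the brightest probe set of each gene, in the 10 interneuron genes and the 6 further lists; red points have an unadjusted p under 0.05 and bars are medians. The 10 genes hold no red point, and the lowest value is that of Cort, at -0.68.

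Markers of other GABAergic neurons, which share some of the measured genes, and of other brain cells were followed. The 4 measured Purkinje markers were all below 0 in knockout against both controls (median -0.11), and their summed intensity was 8871 and 9552 in knockout against 9490 to 10678 in controls. The 6 measured striatal projection neuron markers had a median of 0.02 and summed to 9983 and 10790 in knockout, 8755 and 10345 in NestinCre control and 10842 and 10968 in Flox control. The 5 measured glutamatergic markers were all below 0 (median -0.09), at 12810 and 14053 in knockout against 13668 to 15641 in controls. Olfactory bulb markers (6 measured, median -0.13) summed to 2840 and 3308 in knockout, 2815 and 2994 in NestinCre control and 3551 and 3303 in Flox control. Cerebellar granule cell markers (5 measured) had a median of -0.04 and summed to 14159 and 13701 in knockout against 13966 to 14820 in controls, and the 7 measured hypothalamic and thalamic markers had a median of -0.08 and summed to 8381 and 7891 against 7648 to 8536. The 6 measured microglia markers were all above 0 (median 0.10), led by Aif1, a calcium-binding protein of these cells, at 0.70 (SE 0.06, limma adjusted p = 0.0978), and summed to 6615 and 6920 in knockout against 5907 to 6910 in controls. The 5 measured oligodendrocyte markers were all below 0 (median -0.05, with the myelin protein Mog at -0.21) and summed to 25731 and 25843 against 25899 to 27933. The part of these cells in the levels of the 10 genes was not tested.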

How the data were processed

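Total RNA from brain was amplified from 25 ng, labelled with biotin and hybridised to 1-colour arrays, per the labels' protocols. The deposited values are linear intensities, 1 per probe set and array. The submitters' processing notes name GCOS and RMA, without version or order. RMA gives all arrays a common distribution and compresses differences of dim probe sets.

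Of 45101 probe sets, 64 controls were left out. Symbols came from the platform annotation (34945 probe sets with 1 symbol, 932 with several, 9160 without). Log2 intensities were fitted with limma 3.58.1 in R 4.3.3 (lmFit, eBayes without trend) with a mean per genotype over all 6 arrays, 3 residual degrees of freedom (4.94 with the prior). Benjamini-Hochberg adjustment covered 45037 probe sets, and SE and 95% intervals are limma's. The labels do not tie samples to separate animals. In knockout and NestinCre control the replicates read as opposite sexes, so they came from different animals; for Flox control this is not known, and its spread may be technical. With 6 arrays, their number sets the precision. The step was tested on simulated data with independent noise and changes larger than any difference of the 20 probe sets against both controls. That does not give its power for these genes.

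The brightest probe set of a gene has the highest mean log2 over the arrays. All 10 genes were named, and up to 3 per further list by smallest p against both controls. The genes and lists were chosen with earlier results of these data known. The alternatives were another normalization, centring, an added 16, a brightness filter, eBayes with a trend, the compared groups alone, a replicate block, sex, 1 probe set per gene and each array left out. Genes without a named probe set were not analysed here.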

Additional observations from a re-analysis of the deposited data

How the results depend on the processing

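No probe set of the 10 genes passed the adjusted threshold under any of the 10 other settings or with any of the 6 arrays left out. At an unadjusted p under 0.05 the count against Flox control went from 0 to 2 of 20 with an intensity trend (15.6% of all probe sets). It was 2 with robust fitting added (15.9%) and 1 with the compared groups alone (14%). The brightest Gad1 probe set was counted in the settings with a trend. The dim Reln probe set, below the median brightness, was counted in all of these settings. With one array left out the counts ranged from 0 to 2 against both controls, 0 to 2 against NestinCre control, 1 to 3 against Flox control and 0 to 2 between the controls, where an arm with a lone array is assumed to vary like the others. The replicate block, on numbers that the labels do not tie to a shared animal or batch, gave 1 against NestinCre control (the dimmer Gad2 probe set, 0.19, limma adjusted p = 0.923; 5.34% of all probe sets). Deviations of same-numbered arrays correlated at 0.189, -0.31 and -0.237, so the numbers were not taken as pairs. Signs turned for small differences. Repeated quantile normalization gave Calb1 0.0079 and Pvalb 0.004 against both controls, centring gave Sst -0.003 and Npy -0.0066 between the controls, and sex as a covariate gave Calb1 0.01 against both, Lhx6 0.03 against Flox control and Gad2 -0.01 between the controls. With one array left out, differences against both controls whose sign turned ranged from -0.04 to 0.04 for Calb1, from -0.20 to 0.03 for Lhx6, from -0.05 to 0.03 for Pvalb, from -0.18 to 0.0087 for Slc32a1. With one array left out, differences against NestinCre control whose sign turned ranged from -0.05 to 0.09 for Vip, from -0.10 to 0.09 for Slc32a1, from -0.007 to 0.06 for Calb1, from -0.0027 to 0.08 for Pvalb, from -0.23 to 0.01 for Lhx6. With one array left out, differences against Flox control whose sign turned ranged from -0.11 to 0.05 for Calb1, from -0.29 to 0.17 for Lhx6, from -0.0073 to 0.20 for Gad2. With one array left out, differences between the controls whose sign turned ranged from -0.06 to 0.10 for Sst, from -0.16 to 0.19 for Npy, from -0.18 to 0.27 for Lhx6, from -0.08 to 0.13 for Gad2, from -0.13 to 0.03 for Calb1, from -0.09 to 0.0012 for Reln. Values of dim probe sets are compressed toward each other, which limits what the second probe sets of Lhx6 and Reln can show.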
